A study of Caenorhabditis elegans with 2 samples.

Results

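The genes described here are the 9 enzymes of the methionine cycle and transsulfuration in Caenorhabditis elegans: sams-1, sams-3, sams-4, ahcy-1, metr-1, mthf-1, cbs-1, cth-1 and cth-2. They were taken by name, out of 19973 nuclear protein-coding genes, for the binding of the transcription factor SKN-1 upstream of them. The data were chromatin immunoprecipitation followed by sequencing (ChIP-seq), with SKN-1 tagged by eGFP, in whole L3 larvae of mixed sex. There was 1 group, of 2 biological replicates by the labels, and no second condition was analysed here. Both replicates were of strain OP342, which by the labels carries unc-119(ed3) on chromosome III and the insertion wgIs342, so every value below comes from animals with both alleles. The labels do not say whether the strain keeps its own skn-1. Whole larvae join all tissues, and a peak does not tell in which of them the factor sat.

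The methionine cycle makes S-adenosylmethionine (SAM), the methyl donor of most methylation reactions, from methionine. After the methyl group is given away, S-adenosylhomocysteine is split to homocysteine, which is either methylated back to methionine or drawn off by transsulfuration to cysteine. Cysteine is the limiting building block of glutathione, and SKN-1, the relative of the mammalian Nrf factors, is known as an activator of glutathione synthesis and of other defences against oxidants.

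Of the 9 genes, 3 had a SKN-1 summit of the IDR-thresholded list, which are ahcy-1, cth-2 and metr-1, 1 gene each from the hydrolysis of S-adenosylhomocysteine, transsulfuration and remethylation. IDR, the irreproducible discovery rate, scores whether the order of the peaks repeats between replicates, and this list holds the 1778 peaks that passed the authors' threshold. Around each annotated 5′ end the window reached 2000 bp upstream and 200 bp into the gene, and the windows of a gene were joined. Positions are given from the nearest of a gene's 5′ ends whose window holds the summit. Over all protein-coding genes 10.1% had such a summit. All 3 member summits lay beyond 1000 bp upstream, where 2.33% of all genes had their only summits. With the window ended at 1000 bp, 0 of the 9 members had one, against 7.75% of all genes. None of these counts was tested, since the genes were chosen as a list and there was 1 condition.

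In the 3 longer lists, which hold peaks together with background, most members had a summit, as did between 36.3% and 56.8% of all genes, depending on the list and the reach. The pooled list had a summit in the window of 9 of 9 members, against 56.8% of all genes, and within 1000 bp in 7 of 9, against 45.8%. The replicate 2 list had one for 9 of 9 members, against 56.7%, and within 1000 bp for 8 of 9, against 45.4%. The replicate 1 list had one for 7 of 9, against 48.4%, and within 1000 bp for 6 of 9, against 36.3%. Presence in these lists is therefore common, and the strength of a summit is given below by its signal value, a score on the authors' own scale, and by its rank within its list. Taken alone, the 1778 highest lines of replicate 2 reached ahcy-1, metr-1 and cth-2 (3 of 9, against 9.87% of all genes). The 1778 highest lines of replicate 1 reached ahcy-1 and cth-2 (2 of 9, against 9.02%).

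**Figure D1:**
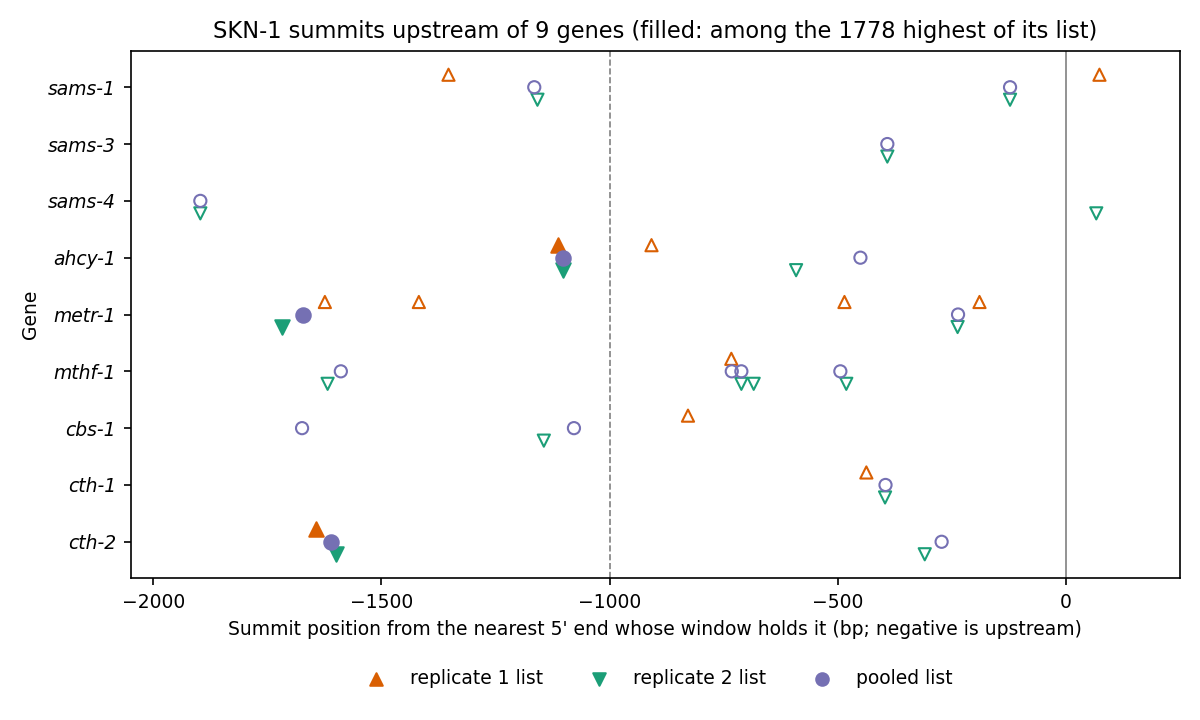
Position of every summit in the windows of the 9 genes, in bp from the nearest of the gene's 5′ ends whose window holds it (negative is upstream), for the replicate 1, replicate 2 and pooled lists. Filled symbols are summits among the 1778 highest of their list, and they stand only at ahcy-1, metr-1 and cth-2, all left of the dashed line, which marks 1000 bp upstream.

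The pooled list held 30000 lines with signal values from 4.23 to 1289.01, replicate 1 held 22350 lines from 2.00 to 235.7, and replicate 2 held 30000 lines from 2.64 to 1064. The 1778 IDR-thresholded peaks were the pooled lines with the 1778 highest signal values, from 26.9 up, with a median of 37.6. Signal values and ranks are compared only within a list. Read depth is unknown from these files, so no limit that needs it is given.

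S-adenosylhomocysteine hydrolase, the single enzyme that clears this product of methylation, had the strongest pooled summit of the 9 genes. The ahcy-1 gene spans 6836469 to 6838140 on chromosome I (plus strand). Its summit stood at -1101 bp, in the intergenic stretch after teg-4, 669 bp from the end of that gene. No other protein-coding gene had this summit in its window. The pooled signal value was 49.8 (rank 466), above the median of the IDR-thresholded list. In replicate 1 the signal value was 23.4 (rank 169) and in replicate 2 it was 27.5 (rank 935). In replicate 2 this summit stood below those of cth-2 (rank 780) and metr-1 (rank 924). Both replicates placed it within 11 bp of the pooled summit, so the site was found in each. Nearer to the gene, a pooled line at -450 bp had a signal value of 8.14 (rank 12710) and no match within 100 bp in either replicate. A replicate 1 line at -908 bp, in the noncoding gene K02F2.11, was likewise weak (signal value 3.55, rank 10853).

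By ranks in the 2 replicates, the genes whose strongest IDR-thresholded summit was most like that of ahcy-1 were siah-1 and nape-1, which share a summit of ranks 152 and 797, and aat-3, of ranks 205 and 855. The likeness was the distance in log10 rank over the 2 replicate lists, 0.083 for the first pair and 0.092 for aat-3. It describes peak strength alone.

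**Figure D2:**
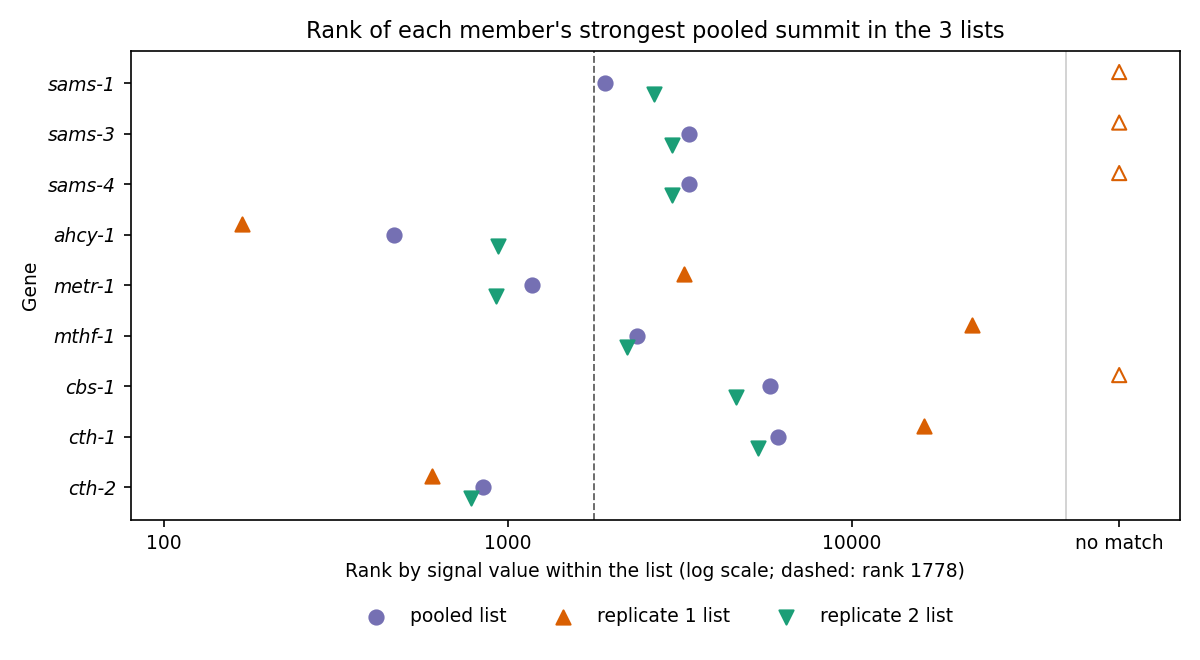
Rank by signal value (log scale) of each gene's strongest pooled summit in the pooled list and of its match within 100 bp in the replicate lists. The pooled ranks run from 466 for ahcy-1 to 6124 for cth-1, and open triangles at the right are sams-1, sams-3, sams-4 and cbs-1, which had no match in replicate 1.

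Transsulfuration is the step that leads from homocysteine to cysteine. Cystathionine beta-synthase (cbs-1) joins homocysteine to serine, and the cystathionine gamma-lyases (cth-1 and cth-2) release cysteine from the product. The last of these carried the second strongest pooled summit of the 9 genes. The cth-2 gene spans 7056184 to 7057960 on chromosome II (minus strand), and its summit stood at -1610 bp, in the 4070 bp between cth-2 and the divergent gene acs-6, 2460 bp from acs-6. The pooled signal value was 38.4 (rank 847), close to the median of the IDR-thresholded list. It was 13.8 (rank 604) in replicate 1 and 29.8 (rank 780) in replicate 2. All 3 ranks were among the 1778 highest of their lists, as they were for ahcy-1. A second pooled line of cth-2 at -272 bp was near the bottom of the list (signal value 5.05, rank 24643).

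The cth-2 summit also held the sequence that SKN-1 is known to bind. The consensus is 8 letters long: A or T, A or T again, T, A or G, and then TCAT. It was searched on both strands with its centre within 50 bp of the summit. The cth-2 summit had 2 matches, ATTATCAT on the gene's strand 4.5 bp from the summit and AATATCAT on the opposite strand 49.5 bp from it. The summits of ahcy-1 and metr-1 had none, and over the list 12.4% of the 1778 IDR-thresholded summits had at least 1 match. Of the pooled lines 6.63% had one. Below the threshold, the strongest sams-1 summit had a match too, TATGTCAT, 33.5 bp from the summit. Both stretches are shown because these are the member summits with the consensus, each as the 151 bases around the pooled summit on the strand of the gene (ce11), with the matches in capitals. The second capital run of cth-2 is the match on the opposite strand.
cth-2, chrII:7059495-7059645, minus strand: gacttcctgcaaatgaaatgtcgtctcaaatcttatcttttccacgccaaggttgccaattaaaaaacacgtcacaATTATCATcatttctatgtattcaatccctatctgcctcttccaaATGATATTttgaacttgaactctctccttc
sams-1, chrX:11964722-11964872, plus strand: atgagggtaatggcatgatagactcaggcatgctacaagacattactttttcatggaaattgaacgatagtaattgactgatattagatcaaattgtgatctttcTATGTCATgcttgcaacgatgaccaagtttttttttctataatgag

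The other cystathionine gamma-lyase gene, cth-1, had a much weaker summit. It spans 16100680 to 16102750 on chromosome V (plus strand), and the divergent gene str-7, whose window holds the same summit, lies 1139 bp away. The pooled summit at -395 bp had a signal value of 13.0 (rank 6124), with 2.67 (rank 16251) in replicate 1 and 10.6 (rank 5325) in replicate 2. Each list thus held a summit within 42 bp of this place, far below the threshold in all 3. The nearest IDR-thresholded summit was 42411 bp away.

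Although they differ in strength, the cth-1 and cth-2 summits share a stretch of sequence. Their 151 bases, on the strand of each gene, have an identical run of 18 bases. The strongest summits of all members but ahcy-1, which was not compared, gave 7 sequences (21 pairs, each in both orientations). In the other comparisons the longest shared run was between 6 and 11 bases. The run of 18 bases occurs at 2 places in the genome, both strands counted, and these are the cth-1 and cth-2 summits. Its centre lay 21.5 bp from the cth-1 summit and 46.5 bp from the cth-2 summit, but -373.5 and -1656.5 bp from the 5′ ends. The run was found after the sequences were seen, so it is a description of these 2 places and not a test. It is printed here in capitals with 20 bases on each side.
cth-1, chrV:16100278-16100335, plus strand: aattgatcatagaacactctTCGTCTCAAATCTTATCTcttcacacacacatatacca
cth-2, chrII:7059588-7059645, minus strand: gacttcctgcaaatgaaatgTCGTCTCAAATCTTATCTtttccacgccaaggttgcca

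The third transsulfuration gene, cbs-1 (10054275 to 10057528 on X, plus strand), had no IDR-thresholded summit in the window but had one just outside it. That summit stood at -2387 bp in an intron of the upstream gene gnrr-3, with a signal value of 31.1 (rank 1329). The site had rank 5987 in the replicate 1 list and rank 1516 in the replicate 2 list. The nearest annotated protein-coding 5′ end was that of cbs-1. Among the members' IDR-thresholded summits inside the limit of 2000 bp, the nearest to that limit was the one of metr-1 at -1672 bp. Within the window, the strongest pooled line of cbs-1 was at -1078 bp (signal value 13.4, rank 5782), with 11.6 (rank 4604) in replicate 2 and no match within 100 bp in replicate 1. The replicate 1 list had a line at -828 bp, near its end (signal value 2.07, rank 21692).

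Remethylation of homocysteine to methionine is done by the vitamin B12-dependent methionine synthase (metr-1), with a methyl group that methylenetetrahydrofolate reductase (mthf-1) provides on folate. The metr-1 gene spans 10926561 to 10931078 on chromosome II (plus strand). Its IDR-thresholded summit was the farthest upstream of the 3 and the weakest by pooled signal value. The pooled signal value was 33.1 (rank 1179), below the median of the list. Replicate 2 had a signal value of 27.6 (rank 924) at the site and replicate 1 had 6.57 (rank 3252), so it was outside the 1778 highest lines of replicate 1. The replicate summits stood at -1717 bp (replicate 2) and -1624 bp (replicate 1), with the pooled summit between them. The summit at -1672 bp lay 294 bp after the end of Y19D2B.2, whose 5′ end, 641 bp away on the same strand, was nearer than that of metr-1. It also lay in the window of the divergent gene Y19D2B.1, at -1915 bp, so the position does not assign it to metr-1. A second metr-1 summit, at -236 bp, was in the pooled list (signal value 13.0, rank 6125) and matched in replicate 1 (2.72, rank 15784) and replicate 2 (7.41, rank 9240).

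The mthf-1 gene (7773904 to 7777823 on chromosome II, minus strand) has 3 annotated 5′ ends. Its strongest summit lay inside the gene, in an intron of the longer transcripts and at -711 bp from the innermost 5′ end. The outermost 5′ end was nearer, but its window does not reach so far into the gene. The pooled signal value was 22.9 (rank 2381), below the threshold although its q-value was at the ceiling of the list. Replicate 2 had 18.0 (rank 2220), whereas the match in replicate 1 was among the last of its 22350 lines (2.00, rank 22332). The other pooled summits of mthf-1 stood at -494, -732 and -1589 bp from the outermost 5′ end, with ranks of 11987, 10470 and 5096. They had matches in replicate 2 and none within 100 bp in replicate 1, and the one at -1589 bp lay in coding sequence of snpc-1.1.

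The metr-1 and mthf-1 summits, the strongest of each gene, have 11 bases in common around CACGTG, the E-box that basic helix-loop-helix factors are known to bind. A shared run of 11 bases is not particular to this pair, since the sams-1 and cbs-1 summits have one of equal length. CACGTG lay within 50 bp of 3.88% of IDR-thresholded summits and of 2.28% of pooled lines, and of no other pooled summit of the 9 genes. The 11 bases occur at 93 places in the genome, 3 of them within 50 bp of an IDR-thresholded summit and 11 within 50 bp of a pooled one. CACGTG was searched after the sequences were seen. Of the other motifs searched, TGATAA (the GATA type) lay within 50 bp of 14.3% of IDR-thresholded summits, among them those of ahcy-1 and cth-2, and of the strongest mthf-1 and cth-1 summits. Of the pooled lines 13.2% had it. At cth-2 it lies within the bases of the SKN-1 match ATTATCAT, read on the other strand, so it is not a separate site. At ahcy-1 the centres of TGATAA and of the last 5 letters of the consensus lay 5.5 and 4.0 bp from the summit. These distances are given without a side, so they do not tell whether these matches overlap. GTAAACA (the DAF-16 type), held by 1.86% of IDR-thresholded summits, was at none of the members' pooled summits. The remethylation pair is shown as 51 bases with the shared run in capitals.
metr-1, chrII:10924879-10924929, plus strand: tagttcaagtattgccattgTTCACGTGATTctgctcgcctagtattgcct
mthf-1, chrII:7777430-7777480, minus strand: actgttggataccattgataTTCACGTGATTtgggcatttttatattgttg

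The SAM synthetases turn methionine into SAM, and none of the 3 had an IDR-thresholded summit. The sams-1 gene (11965962 to 11969893 on X, plus strand), known in worms for its link to phosphatidylcholine synthesis and fat storage, came closest. Its pooled summit at -1165 bp, the one with the consensus shown above, had a signal value of 25.9 (rank 1916). The lowest IDR-thresholded peak had 26.95 (rank 1778), and both were at the ceiling of the q-value. Replicate 2 had 16.3 (rank 2657) at the site. Replicate 1 had no summit within 100 bp there, its nearest line standing at -1353 bp (signal value 3.30, rank 12155). A second sams-1 summit, at -122 bp, was found in the pooled list (rank 5420) and in replicate 2 (rank 3197) at the same base, and again had no match in replicate 1.

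The sams-3 and sams-4 genes stand back to back on chromosome IV (5848657 to 5850843 on the plus strand and 5844061 to 5846369 on the minus strand), with 2288 bp between them, and shared 1 pooled summit. It lay at -391 bp of sams-3 and -1897 bp of sams-4 and had a signal value of 18.6 (rank 3367), with 15.1 (rank 2997) in replicate 2 and no match in replicate 1. Neither gene had any line in the replicate 1 list. In replicate 2, sams-4 had a further line at 67 bp inside the gene, near the end of the list (signal value 2.71, rank 29420). The nearest IDR-thresholded summit of the pair was in an intron of nhr-46, 89755 bp from sams-4 and -92043 bp from sams-3.

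**Figure D3:**
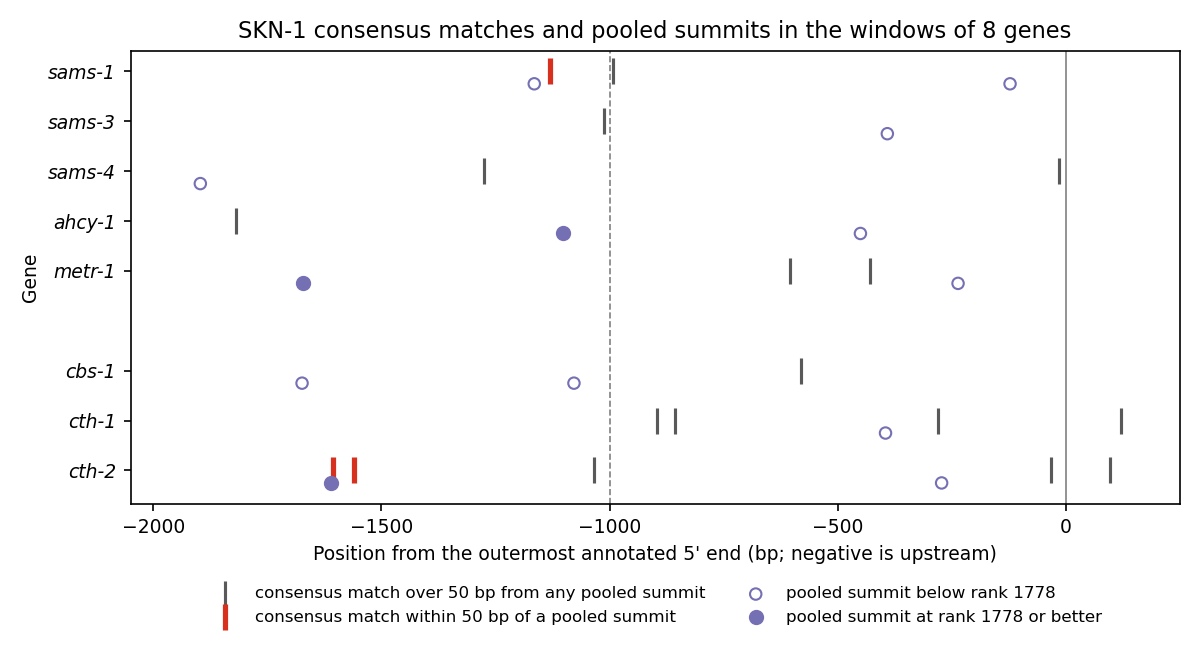
Matches to the SKN-1 consensus (bars) and pooled summits (circles) by position from the outermost annotated 5′ end, in bp, for the 8 genes with a match (mthf-1 had none). The 3 matches, 2 at cth-2 and 1 at sams-1, that lay within 50 bp of a pooled summit are drawn in red.

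The consensus was present in most of the windows, with or without a summit. Counted from the outermost 5′ end, 8 of 9 members had a match, against 69.5% of all protein-coding genes, and the members had 18 matches in all. The sams-3 match at -1012.5 bp and the sams-4 match at -1275.5 bp are the same site, counted for both genes. Of these 18 matches, 3 lay within 50 bp of a pooled summit, in 2 of the 9 genes. Over the windows of all protein-coding genes, 1271 of 25438 matches did, in 5.71% of the genes, and the difference was not tested. The cth-1 window had 4, of which the nearest to its summit was 114.5 bp away, and the ahcy-1 window had 1, at 717.5 bp from any pooled summit. The shorter core of the motif, A or G followed by TCAT, lay within 50 bp of all 3 members' IDR-thresholded summits, and of 41.7% of all IDR-thresholded summits.

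The replicates differed at the weaker of these sites and in the order of the 3 IDR-thresholded member summits. The 9 genes have 8 different strongest pooled summits, since sams-3 and sams-4 share one. All 8 had a summit within 100 bp in replicate 2, and 5 had one in replicate 1. The 3 in the IDR-thresholded list were matched in both, as were 85.1% of all IDR-thresholded summits, so a match there is common. Of the 5 below it, 2 (mthf-1 and cth-1) had a match in replicate 1, both low in that list, and 5 had one in replicate 2. Among all 4346 pooled lines from below the threshold down to rank 6124, 53.7% had a match in replicate 1 and 89.3% in replicate 2. The pooled list joins both replicates, so these matches are partly built in.

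**Figure D4:**
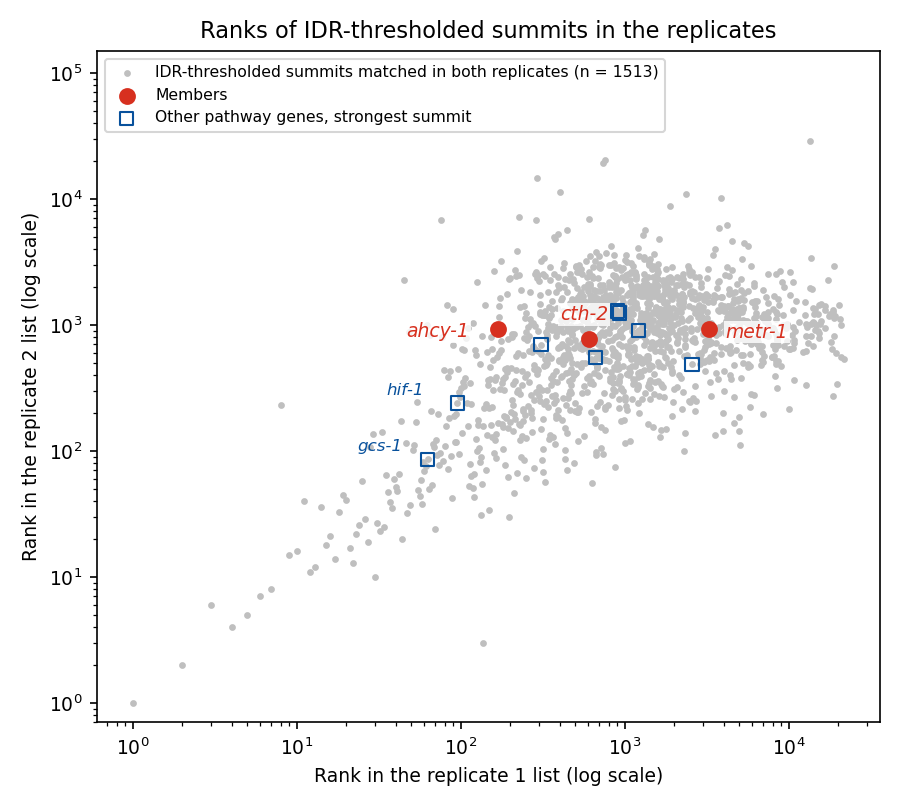
Rank in replicate 1 against rank in replicate 2 (both log scales) of the 1513 IDR-thresholded summits matched in both (grey), of the member summits (red) and of the strongest summit of other pathway genes matched in both (squares, nhr-10 left out). The 3 member summits have replicate 2 ranks between 780 and 935, while their replicate 1 ranks run from 169 for ahcy-1 to 3252 for metr-1.

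Beyond the members, 45 other genes of the surrounding pathways were listed, and 9 of them (20%) had an IDR-thresholded summit in the window. In glutathione synthesis, for which transsulfuration supplies cysteine, gcs-1 (the rate-limiting step) had a summit at -635 bp with a pooled signal value of 102 (rank 69). This summit had rank 63 in the replicate 1 list and rank 86 in the replicate 2 list. Each of the 9 members stood below it in the pooled list and in both replicates. The second enzyme, gss-1, lay just under the threshold at -205 bp (signal value 25.9, rank 1925, no match within 100 bp in either replicate), beside the sams-1 summit in the order. The windows of M176.16, M176.4 and chch-3 hold this summit too. A weaker gss-1 line of the pooled list, at -414 bp (signal value 15.7, rank 4478), was matched in both replicates. It had 7.09 (rank 2725) in replicate 1 and 14.9 (rank 3071) in replicate 2.

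Among close relatives of the members, 2 of 7 had a summit. One was mtrr-1, the reductase that keeps methionine synthase active, at -1785 bp with a pooled signal value of 46.8 (rank 540). Like the metr-1 summit, it was among the 1778 highest lines of replicate 2 (rank 488) and not of replicate 1 (rank 2570). The other was cysl-2, a cysteine synthase-like gene known as a target of the hypoxia factor HIF-1, at -229 bp with a signal value of 38.6 (rank 836). Of 9 methyltransferases that use SAM, anmt-2 had 2 summits, at -1022 and -1556 bp (signal values 36.6 and 31.1), nearest to the 5′ end of nfm-1. The folate one-carbon genes (0 of 7), the vitamin B12 and propionate genes (0 of 7) and the genes of cysteine and sulfide breakdown (0 of 6) had none.

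Regulators of these pathways had the most, 5 of 7. They were hif-1 at -1934 bp (signal value 73.6, rank 159) and rhy-1 at -1050 bp (56.3, rank 328) and egl-9 at -1712 bp (35.8, rank 994), whose products form the known hydrogen sulfide and oxygen-sensing pathway with CYSL-1. The others were nhr-68 at -369 bp (52.7, rank 407) and nhr-10 at -1434 bp (47.2, rank 523), nuclear receptors known to control genes of propionate breakdown. Of these summits, that of nhr-10 had no match in replicate 1 and ranked 330 in replicate 2, and that of nhr-68 was nearer to the 5′ end of H12C20.7. The remaining listed regulators, nhr-114 and sbp-1, had no IDR-thresholded summit in the window. Window length differs between these lists and was not adjusted for. The regulators had a median joined window of 3494 bp, against 2201 bp in the other 6 lists. Over all genes, 15% of those with a longer joined window had a summit, against 8.31% of those with the single window of 2201 bp. Without the regulators, 4 of 38 of the other pathway genes (10.5%) had a summit, close to the 10.1% of all genes.

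The members and the other pathway genes together had summits mostly beyond 1000 bp upstream. Of the 12 genes with an IDR-thresholded summit, 9 had it only beyond 1000 bp, while over all genes 466 of 2013 (23.1%) did. The exceptions were gcs-1, cysl-2 and nhr-68. Of the 9 genes, anmt-2 (-1022 bp), rhy-1 (-1050 bp) and ahcy-1 (-1101 bp) had a summit close to the 1000 bp cut. The others had theirs at -1434 bp or farther out. The difference from all genes was not tested. Distances were measured from annotated 5′ ends, and in C. elegans many transcripts receive a trans-spliced leader, so that the annotated 5′ end need not be where transcription starts. The transcription starts themselves were not analysed here.

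**Figure D5:**
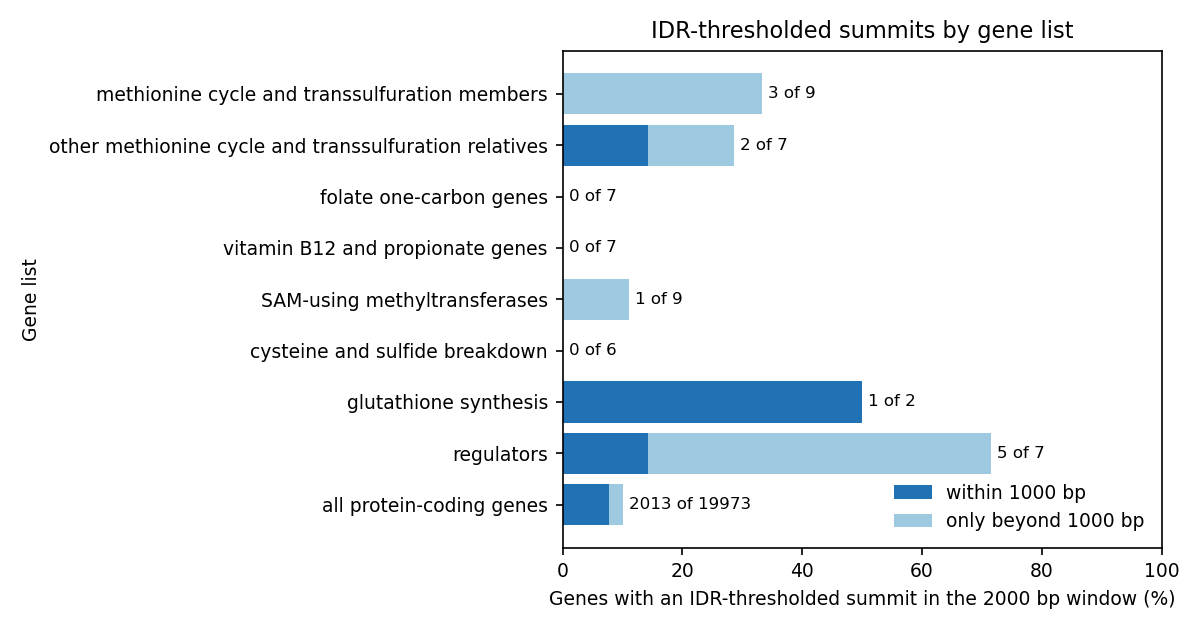
Share of genes (%) with an IDR-thresholded summit in the window, split into genes with one within 1000 bp of a 5′ end (dark) and genes with one only beyond it (light), for the 9 members, the 7 other lists and all protein-coding genes. The members' bar, 3 of 9, is light throughout, whereas most of the bar of all genes is dark.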

How the data were processed

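Per the notes deposited with the samples, the authors made a narrowPeak list for each replicate and for both pooled, each from the alignments and a further file that the control-normalized tracks also use, and derived the IDR-thresholded list from these. Names and settings of the aligner, the peak caller and the IDR step: not given in the sources used here. Deposited in each list, the signal value is a score of unstated unit, and q-values were deposited as their −log10. The 4 lists on ce11 were used. Lists on ce10 were left out, and signal tracks and control reads were not analysed here. All peak ends lay within the WBcel235 chromosomes (highest ratio to length, 0.99993), which is ce11.

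Summits were computed from the deposited offset, as 1-based positions. Genes and 5′ ends of protein-coding transcripts came from Ensembl release 115, and sequences from the RefSeq WBcel235 genome. Summits within 100 bp were matched between lists. Ranks are by signal value. Motifs were searched on both strands. Counts were made with Python 3.11.15 and pandas 2.3.3, and the search was tested on simulated summits and motifs. No significance test was made.

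The members and the gene lists were chosen with earlier results of these data known. Genes named are the members, the other pathway genes with an IDR-thresholded summit, gcs-1 and gss-1, genes whose window holds a member's IDR-thresholded summit, and the 3 genes most like ahcy-1 by replicate ranks. The regulators nhr-114 and sbp-1 are named to complete their list. The neighbours teg-4, acs-6, str-7, gnrr-3, snpc-1.1, nhr-46, nfm-1, Y19D2B.2, H12C20.7, K02F2.11, M176.16, M176.4 and chch-3 are named only for their position, after it was seen. Alternatives were other window reaches, the outermost 5′ end, any base of a peak, the nearest gene, stricter lists, each replicate alone, and other match and motif distances.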

Additional observations from a re-analysis of the deposited data

How the results depend on the processing

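The member count rests on the reach of the window. With 1000 bp or 500 bp upstream, 0 of 9 members had an IDR-thresholded summit, by construction, since all 3 stand farther out. It stayed at 3 with the outermost 5′ end, by construction, since ahcy-1, metr-1 and cth-2 have 1 annotated 5′ end each. It also stayed at 3 with any base of the peak, which could only add members, and without replicate 1. It was 2 without replicate 2 (metr-1 lost), with the nearest gene alone (metr-1 lost) and among the 889 strongest lines of the list (metr-1 lost). The other pathway genes went from 9 to 3 with 1000 bp and to 2 with 500 bp, and lay between 7 and 11 otherwise. Cut to as many top lines as the IDR-thresholded list, the pooled list is that list itself, so its member count of 3 was fixed in advance. The same cut gave member counts of 3 in replicate 2 and 2 in replicate 1. The replicate 1 count was 3 with 500 bp. With the last 5 letters of the consensus, 3 member summits had a match in place of 1. The other 30 of 39 alternatives stayed within 1.5 times the reported count, the outermost 5′ end for the member count among them. No paired analysis was possible because there was 1 group and no test. Depth, replicate number and the unstated score scale limit what a weak line in the longer lists can show.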
